A study of Mus musculus with 9 samples.

Results

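The genes described here encode heterotrimeric G protein subunits and the proteins that set how long they signal. They were the protein-coding rows of the count table named as Gα, Gβ or Gγ subunits, RGS proteins, G protein-coupled receptor kinases (GRKs), β-arrestins or Ric8 chaperones, with Gnas left out by the rule. The rule found 47 of the 21676 genes in the table. RNA came from B16 cells, a mouse melanoma line labelled as skin, grown in DMEM with serum. The groups were cells with the hairpin shAD4-1, cells with the hairpin shAD4-2 and cells with a control hairpin (shControl), with 3 replicates each, and no group was without a hairpin. The series title concerns signalling by ADGRL4, a receptor of the adhesion family, through Gαs and YAP1, and the design text calls both hairpin groups knockdown derivatives. Each hairpin is represented by a single derivative line, whose origin as a clone or a pool is not given in the labels, and the targeted gene is not analysed here.

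A heterotrimeric G protein consists of a Gα subunit that binds a guanine nucleotide and a Gβγ dimer. An activated receptor makes Gα exchange GDP for GTP, upon which Gα and Gβγ act on separate effectors until Gα hydrolyses the GTP. Gαi/o subunits inhibit adenylyl cyclase, Gαq/11 subunits activate phospholipase C-β and Gα12/13 subunits activate exchange factors of the RhoGEF group, a route by which receptors reach YAP. RGS proteins speed GTP hydrolysis, GRKs phosphorylate active receptors, β-arrestins bind the phosphorylated receptors, and Ric8 proteins help newly made Gα subunits to fold.

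The libraries held 31319244 to 36880496 reads in genes. Levels are given as the FPKM values the authors deposited, scaled by gene length and library total, so that they can be compared between genes. Fold changes are log2 values from edgeR's quasi-likelihood test on the counts, with Benjamini-Hochberg adjustment over 13807 tested genes, and a gene was called at an adjusted p below 0.05. The test scaled libraries by TMM factors of 1.02 to 1.03 in shControl and 0.985 to 0.988 in hairpin libraries, so a fold change lies slightly above the plain ratio of FPKM values. All 10 melanocyte lineage markers stood above 1 FPKM in every group, with summed levels of 4135 to 4235 FPKM in shAD4-1, 4533 to 4946 FPKM in shAD4-2 and 4740 to 5471 FPKM in shControl libraries. Endothelial and keratinocyte markers summed to at most 0.0868 FPKM in any library. Of the leukocyte markers, Lyz2 averaged 2.69 FPKM in shAD4-1, 4.01 FPKM in shAD4-2 and 0.177 FPKM in shControl libraries, Cd68 averaged 3.65 FPKM in shAD4-1, 3.05 FPKM in shAD4-2 and 2.63 FPKM in shControl libraries, and Ptprc and Cd3e were at or near 0. The 5 of 6 fibroblast markers in the table summed to 9.98 to 10.5 FPKM in shAD4-1, 8.99 to 9.87 FPKM in shAD4-2 and 7.89 to 8.91 FPKM in shControl libraries, mostly from Pdgfrb. Of these, Col1a1 averaged 0.674 FPKM in shAD4-1, 0.785 FPKM in shAD4-2 and 0.432 FPKM in shControl libraries, and Col1a2 0.677 FPKM in shAD4-1, 0.933 FPKM in shAD4-2 and 0.116 FPKM in shControl libraries. The part of these markers in the results was not tested. Protein genes encoded in mitochondria, 13 in number, took up a share of reads of 3.74 ± 0.104% in shAD4-1, 3.72 ± 0.150% in shAD4-2 and 2.45 ± 0.156% in shControl libraries (SD, n = 3). The share was higher in both hairpin groups than in shControl. A fit without those genes called the same numbers of members against shControl, 29 and 31. That fit only takes those rows out, and the part of the share in the results was not tested. In bulk RNA fewer cells of a type and less RNA per cell cannot be told apart, and the p-values measure the spread between replicates of these lines.

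Of the 47 members 40 passed the filter on low counts and were tested, and 36 reached an average of 1 CPM (counts scaled to library total) in a group. Of the 40 tested members 10 rose and 19 fell with shAD4-1 against shControl, and 10 rose and 21 fell with shAD4-2 against shControl. The called members were 72.5% and 77.5% of those tested, against 65% and 69% of all genes tested, so being called was hardly more common among the members than among genes in general. By direction, 32.7% of all tested genes rose and 32.3% fell with shAD4-1, and 34.2% rose and 34.8% fell with shAD4-2. The median log2 fold change of the tested members was -0.25 with shAD4-1 and -0.24 with shAD4-2, against -0.01 for all tested genes in either comparison. At a change of at least 1.5-fold, 11 members were called with shAD4-1 (3 higher, 8 lower), beside 25.1% of all tested genes (12.6% higher, 12.5% lower), and 14 with shAD4-2 (3 higher, 11 lower), beside 29.3% (13.7% higher, 15.6% lower). Both comparisons share the 3 shControl libraries, so their values are set side by side and are not independent.

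**Figure D1:**
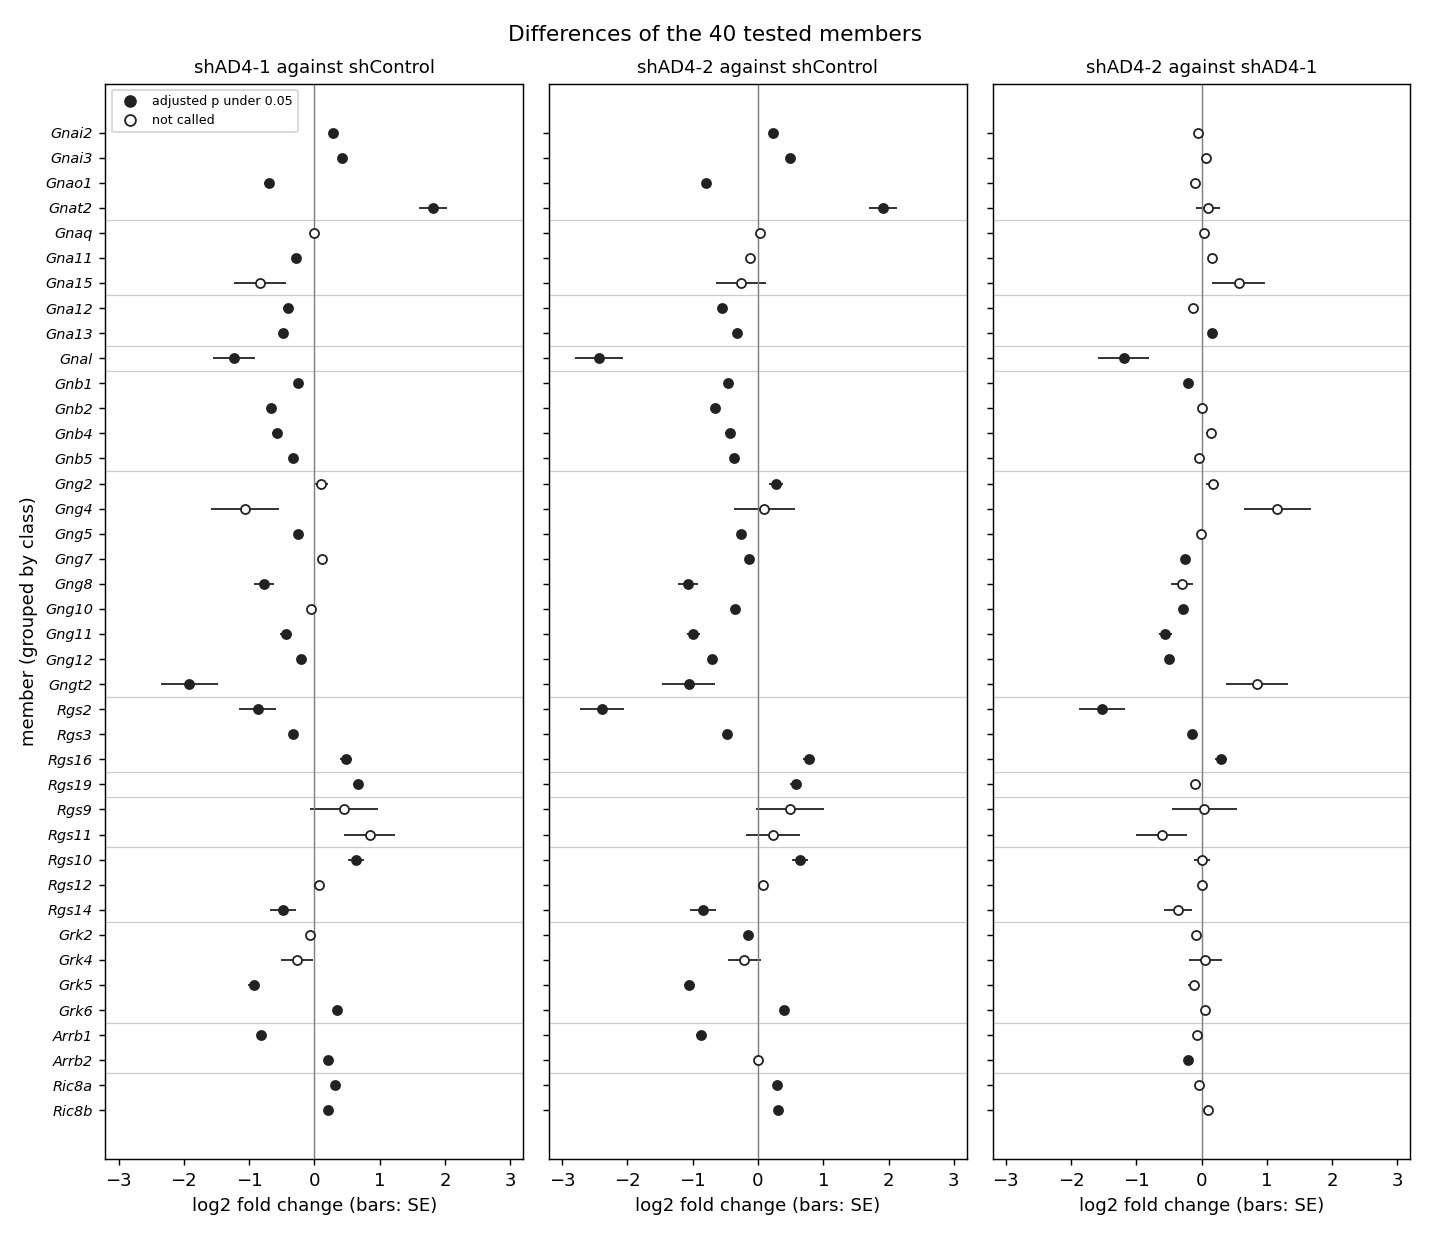
Log2 fold changes of the 40 tested members for each of the 3 comparisons, grouped by class from Gα at the top to Ric8 at the bottom. Points are edgeR estimates with their SE as bars, and filled points have an adjusted p below 0.05. The 4 Gβ genes lie left of 0 in both comparisons with shControl, Gnat2 lies farthest right, and Gnal and Rgs2 lie farthest left with shAD4-2.

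For 35 of the 47 members RefSeq's promoter table (GRCm38.p6, a build other than the authors' GRCm39) holds a window at the gene's start. Sequences are shown for 3 of them, chosen after their values were seen: Rgs2, which fell, and Rgs16, which rose, as members of the same RGS subfamily, and Gnat2, which rose the most. Each is the 250 bases before the start, read 5′ to 3′ on the gene's strand.
Rgs2 (chr1:144004150-144004399, minus strand): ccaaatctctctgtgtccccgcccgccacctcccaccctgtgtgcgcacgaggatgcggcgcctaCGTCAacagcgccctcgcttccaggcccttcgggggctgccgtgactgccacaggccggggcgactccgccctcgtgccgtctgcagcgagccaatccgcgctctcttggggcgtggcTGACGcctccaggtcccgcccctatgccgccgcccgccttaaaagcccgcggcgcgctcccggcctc
Rgs16 (chr1:153740103-153740352, plus strand): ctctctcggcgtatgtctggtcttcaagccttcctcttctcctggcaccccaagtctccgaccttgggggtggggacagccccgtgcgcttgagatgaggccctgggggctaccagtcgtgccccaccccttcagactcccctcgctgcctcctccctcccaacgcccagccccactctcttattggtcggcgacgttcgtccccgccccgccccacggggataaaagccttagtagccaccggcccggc
Gnat2 (chr3:108092816-108093065, plus strand): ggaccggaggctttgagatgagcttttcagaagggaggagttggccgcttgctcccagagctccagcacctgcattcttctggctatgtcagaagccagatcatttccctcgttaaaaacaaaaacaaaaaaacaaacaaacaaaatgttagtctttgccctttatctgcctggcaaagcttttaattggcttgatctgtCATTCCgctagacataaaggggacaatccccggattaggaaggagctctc
Capitals mark matches, on either strand, to TGACG, the short form of the cAMP response element (CRE), or to GGAATG, the core letters of TEAD sites. The Rgs2 window held TGACG at 185 and at 67 bases before the start, the Gnat2 window held GGAATG at 50 bases before the start, and the Rgs16 window held neither. Among the 30 tested members with a window, 23.3% held TGACG, against 19.8% of 27025 genes with a window. GGAATG was held by 13.3% of those members and by 14.4% of genes, and the full CRE TGACGTCA, which contains the short form, by 0 of those members and 1.77% of genes. These matches describe letters only.

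The Gαi/o/z/t class holds the inhibitory Gα subunits and the Gα subunits of transducin. In it Gnai2 and Gnai3 rose with both hairpins, Gnao1 fell and Gnat2 rose the most of all members. Gnai2, the most abundant Gα gene of the rule, stood at 222, 219 and 219 FPKM in shAD4-1, 212, 223 and 201 FPKM in shAD4-2 and 183, 185 and 194 FPKM in shControl libraries. Its hairpin libraries all lay above its shControl libraries, by a log2 fold change of 0.29 (SE 0.04, adjusted p = 4.43e-06) with shAD4-1 and 0.23 (SE 0.04, adjusted p = 4.89e-05) with shAD4-2. Gnai3, a second inhibitory subunit, averaged 63.1 ± 2.96 FPKM in shAD4-1, 66.1 ± 2.59 FPKM in shAD4-2 and 49.2 ± 2.23 FPKM in shControl libraries (SD, n = 3), log2 fold changes of 0.42 and 0.48. Gnao1 encodes the α subunit of Go, which is abundant in neurons. It stood at 7.06, 6.62 and 6.38 FPKM in shAD4-1, 6.48, 6.10 and 6.20 FPKM in shAD4-2 and 9.66, 11.3 and 12.7 FPKM in shControl libraries. It fell with both hairpins, by log2 fold changes of -0.69 (SE 0.07, adjusted p = 1.64e-07) and -0.79 (SE 0.07, adjusted p = 2.71e-08), without overlap between hairpin and shControl libraries.

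Gnat2 encodes the α subunit of transducin of cone photoreceptors. Its levels were 2.08, 1.75 and 2.11 FPKM in shAD4-1, 2.21, 2.20 and 1.96 FPKM in shAD4-2 and 0.394, 0.581 and 0.762 FPKM in shControl libraries. Each hairpin library lay above every shControl library, with log2 fold changes of 1.82 (SE 0.21, adjusted p = 4.31e-07) and 1.92 (SE 0.21, adjusted p = 1.85e-07). The level remained low beside the other class members, at 0.678% of the summed FPKM of the class in shAD4-1, 0.742% in shAD4-2 and 0.232% in shControl libraries. Among markers of photoreceptors, Sag averaged 0.185 FPKM in shAD4-1, 0.145 FPKM in shAD4-2 and 0.156 FPKM in shControl libraries, and Pde6a was at or near 0 in each group. Together the 4 genes of the class summed to 292 ± 1.67 FPKM in shAD4-1, 286 ± 9.97 FPKM in shAD4-2 and 248 ± 5.46 FPKM in shControl libraries. For orientation, Gnas, which encodes Gαs and is left out by the rule, ran from 136 to 141 FPKM in shAD4-1, from 133 to 135 FPKM in shAD4-2 and from 173 to 193 FPKM in shControl libraries.

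Both Gα12/13 genes, whose products act on RhoGEFs, fell with both hairpins. Gna12 stood at 31.3, 31.6 and 30.0 FPKM in shAD4-1, 27.0, 28.4 and 29.1 FPKM in shAD4-2 and 38.0, 45.0 and 45.5 FPKM in shControl libraries. The groups did not overlap, and the log2 fold changes were -0.41 (SE 0.06, adjusted p = 1.13e-05) and -0.55 (SE 0.06, adjusted p = 3.04e-07). Gna13 averaged 15.4 ± 0.248 FPKM in shAD4-1, 17.2 ± 0.546 FPKM in shAD4-2 and 22.4 ± 0.682 FPKM in shControl libraries, log2 fold changes of -0.48 and -0.33. The summed level of the pair was 46.3 ± 0.639 FPKM in shAD4-1, 45.4 ± 0.883 FPKM in shAD4-2 and 65.2 ± 3.56 FPKM in shControl libraries (SD, n = 3).

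In the Gαq/11 class, Gna11 fell with shAD4-1 and its paralog Gnaq was not called. Gna11 stood at 30.5, 29.9 and 30.5 FPKM in shAD4-1, 34.5, 35.7 and 31.3 FPKM in shAD4-2 and 34.5, 39.8 and 40.8 FPKM in shControl libraries. The shAD4-1 libraries lay below all shControl libraries (log2 fold change -0.28, SE 0.06, adjusted p = 0.00034). The shAD4-2 libraries overlapped with shControl replicate 1 (log2 fold change -0.13, SE 0.06, adjusted p = 0.0625), and the fall with shAD4-2 was called without that replicate (adjusted p = 0.000443) or without shAD4-2 replicate 2 (adjusted p = 0.0383). That fall was also called without a filter on low counts (adjusted p = 0.0277) and in limma on log2(FPKM + 1) with a minimum of 1 FPKM (adjusted p = 0.025). Gnaq averaged 15.5 ± 0.240 FPKM in shAD4-1, 15.9 ± 0.265 FPKM in shAD4-2 and 16.2 ± 0.273 FPKM in shControl libraries, with log2 fold changes of -0.01 and 0.03 (adjusted p = 0.854 and 0.558). Gna15, a Gq-class subunit known from blood cells, had 56, 75 and 97 reads over the 3 libraries of shAD4-1, shAD4-2 and shControl and was not called (adjusted p = 0.073 and 0.554), except with shAD4-1 when its replicate 1 was left out (adjusted p = 0.0266).

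Gnal encodes Gαolf, a stimulatory subunit known from the olfactory epithelium and the striatum, and it was the member with the largest fall with shAD4-2. It had 23, 41 and 25 reads in shAD4-1, 9, 13 and 13 reads in shAD4-2 and 51, 92 and 63 reads in shControl libraries. The 3 groups did not overlap, with log2 fold changes of -1.24 (SE 0.32, adjusted p = 0.00249) for shAD4-1 and -2.43 (SE 0.37, adjusted p = 1.04e-05) for shAD4-2 against shControl. These are few reads, at most 0.428 FPKM in any library. Its gene overlaps Chmp1b and Mppe1 in RefSeq, and whether the authors' counting used strand is not given. Chmp1b was not called with shAD4-1 and had a log2 fold change of -0.30 with shAD4-2, and Mppe1 was not called in either comparison.

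The Gβ genes fell throughout: 4 of the 5 were tested, and all of these 4 were lower with both hairpins. Of all tested genes 32.3% were lower with shAD4-1 and 34.8% with shAD4-2. Gnb1, the most abundant, stood at 245, 242 and 243 FPKM in shAD4-1, 213, 209 and 210 FPKM in shAD4-2 and 295, 303 and 309 FPKM in shControl libraries. The 3 groups were separate, with log2 fold changes of -0.25 (SE 0.03, adjusted p = 2.5e-06) and -0.47 (SE 0.03, adjusted p = 6.4e-10). Gnb2 stood at 47.9, 46.6 and 45.0 FPKM in shAD4-1, 46.4, 47.2 and 46.1 FPKM in shAD4-2 and 70.7, 79.6 and 78.9 FPKM in shControl libraries. Its fall was the largest of the class, -0.66 with either hairpin (SE 0.04, adjusted p = 3.65e-10 and 2.99e-10). Gnb4 fell by 0.57 and 0.42 and Gnb5, which pairs with RGS proteins of the R7 subfamily in neurons, by 0.33 and 0.37 on the log2 scale with shAD4-1 and shAD4-2 in that order. Summed over the class, Gβ transcripts stood at 318 ± 1.16 FPKM in shAD4-1, 284 ± 2.24 FPKM in shAD4-2 and 416 ± 11.1 FPKM in shControl libraries (SD, n = 3). Gnb1 held 76.6% of that sum in shAD4-1, 74.0% in shAD4-2 and 72.7% in shControl libraries, so the order of the Gβ genes, Gnb1 above Gnb2, Gnb5 and Gnb4, was kept in each group.

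**Figure D2:**
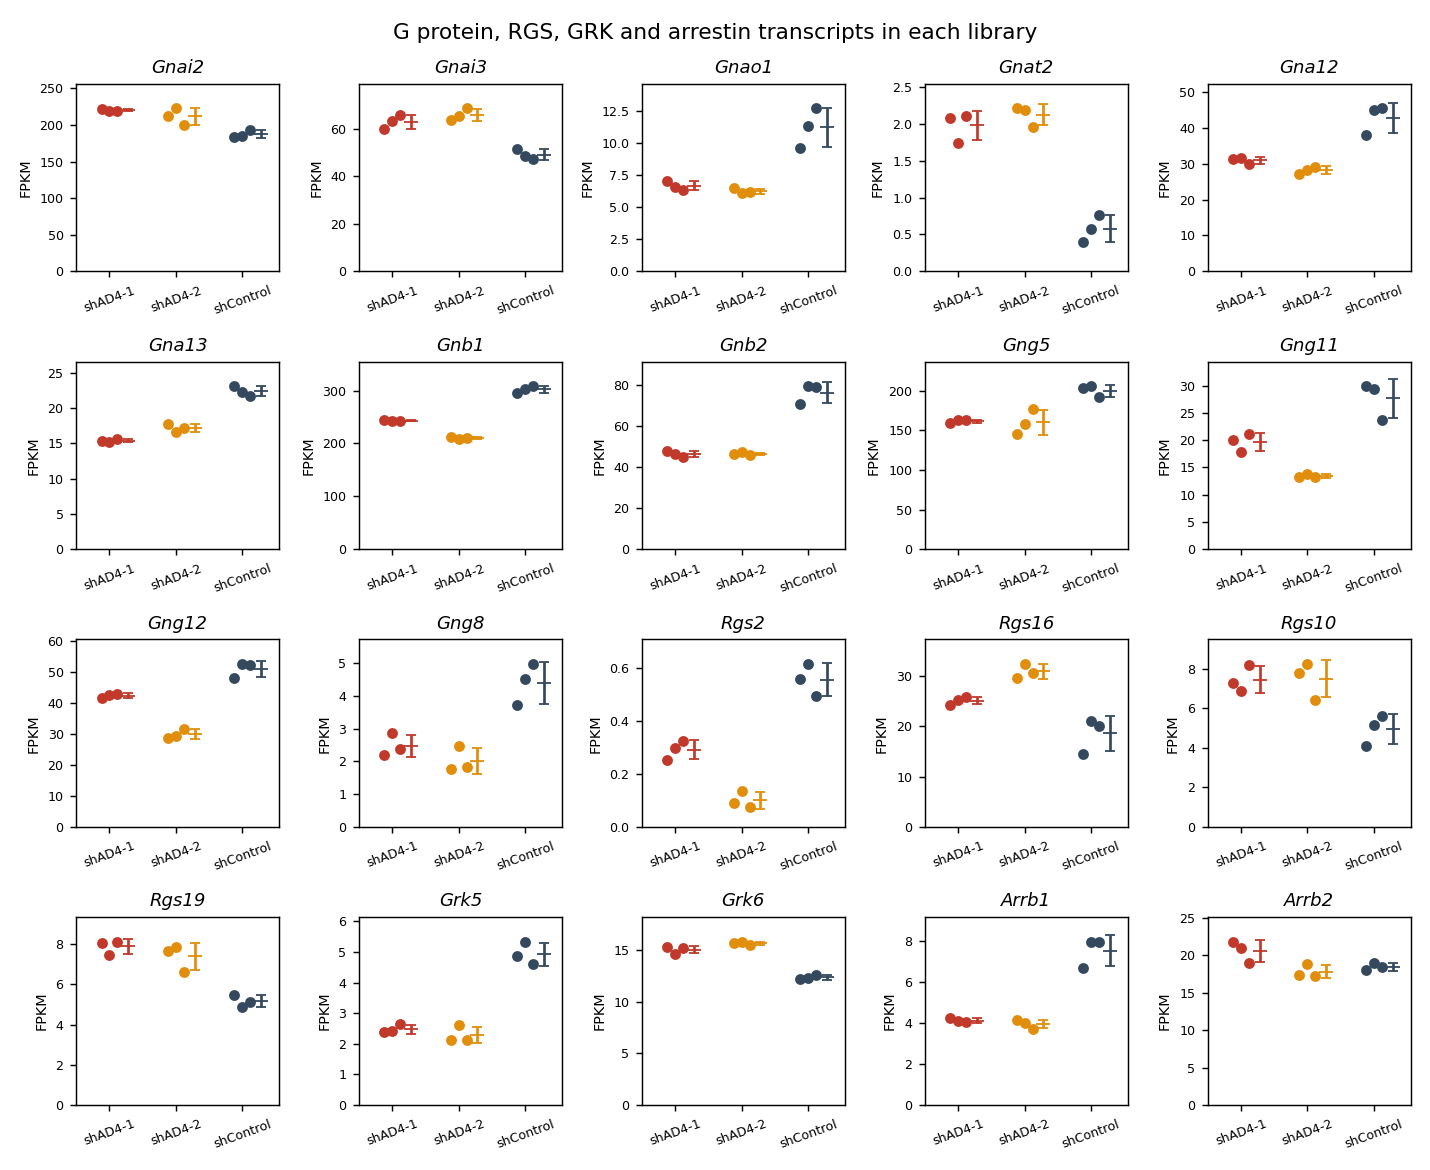
FPKM of 20 members in each of the 9 libraries (points, 3 per group), with the mean and SD of each group beside them as a bar. The vertical axes start at 0 and differ between panels. Gnb1, Gng11, Gng12 and Rgs2 form 3 separate levels, lowest in shAD4-2, whereas Gnat2 in hairpin libraries, at 1.75 to 2.21 FPKM, lies above shControl libraries at 0.394 to 0.762 FPKM.

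Gγ subunits anchor the dimer in the membrane through a lipid at their C-terminus. Of 10 Gγ genes 9 were tested, of which 5 fell and 4 were not called with shAD4-1, and 7 fell, 1 rose and 1 was not called with shAD4-2. Called Gγ genes were 55.6% and 88.9% of those tested, beside 65% and 69% of all tested genes (32.3% and 34.8% lower). Gng5, the most abundant, stood at 159, 163 and 163 FPKM in shAD4-1, 146, 158 and 177 FPKM in shAD4-2 and 203, 206 and 192 FPKM in shControl libraries. It fell by a log2 fold change of -0.25 (SE 0.06, adjusted p = 0.000667) with shAD4-1 and -0.27 (SE 0.06, adjusted p = 0.000376) with shAD4-2, and the shAD4-2 libraries spread the most.

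Gng12 and Gng11 fell further with shAD4-2 than with shAD4-1. Gng12 stood at 41.5, 42.5 and 42.8 FPKM in shAD4-1, 28.7, 29.2 and 31.7 FPKM in shAD4-2 and 47.9, 52.5 and 52.1 FPKM in shControl libraries. The log2 fold change was -0.21 (SE 0.05, adjusted p = 0.00055) with shAD4-1 and -0.71 (SE 0.05, adjusted p = 1.32e-10) with shAD4-2. Gng11, a farnesylated Gγ subunit found in many tissues, stood at 20.03, 17.8 and 21.1 FPKM in shAD4-1, 13.2, 13.8 and 13.2 FPKM in shAD4-2 and 29.9, 29.5 and 23.6 FPKM in shControl libraries. Its 3 groups did not overlap either, with log2 fold changes of -0.43 (SE 0.09, adjusted p = 0.000454) and -0.99 (SE 0.10, adjusted p = 3.93e-08).

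Gng8, known from olfactory neurons, stood at 2.20, 2.85 and 2.38 FPKM in shAD4-1, 1.76, 2.48 and 1.82 FPKM in shAD4-2 and 3.72, 4.50 and 4.97 FPKM in shControl libraries. All hairpin libraries lay below all shControl libraries, by log2 fold changes of -0.77 (SE 0.15, adjusted p = 0.000229) and -1.07 (SE 0.16, adjusted p = 8.42e-06). Gngt2, the Gγ subunit of cone transducin, stood at 0.417, 0.275 and 0.148 FPKM in shAD4-1, 0.390, 0.803 and 0.348 FPKM in shAD4-2 and 1.18, 1.14 and 1.02 FPKM in shControl libraries. It thus fell where its partner in cones, Gnat2, rose, with log2 fold changes of -1.92 (SE 0.43, adjusted p = 0.000797) and -1.06 (SE 0.41, adjusted p = 0.0266). The second call rests on 46 reads over the shAD4-2 and 104 over the shControl libraries and was lost without shAD4-2 replicate 1 (adjusted p = 0.11) or 3 (adjusted p = 0.111) and without shControl replicate 1 (adjusted p = 0.0592) or 2 (adjusted p = 0.0678). Gngt2 overlaps Abi3 in RefSeq, which averaged 0.359 FPKM in shAD4-1, 0.38 FPKM in shAD4-2 and 0.508 FPKM in shControl libraries. Abi3 fell too with shAD4-1 (log2 fold change -0.44, adjusted p = 0.0322) and was not called with shAD4-2 (-0.36, adjusted p = 0.0739).

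The remaining Gγ genes changed less or had few reads. Gng10 averaged 73.3 ± 4.39 FPKM in shAD4-1, 59.98 ± 0.895 FPKM in shAD4-2 and 79.4 ± 1.73 FPKM in shControl libraries, and fell with shAD4-2 (log2 fold change -0.35, SE 0.05, adjusted p = 3.3e-06). Gng7 had log2 fold changes of 0.12 (adjusted p = 0.0737) and -0.14 (adjusted p = 0.0306), and Gng2 of 0.10 (adjusted p = 0.406) and 0.27 (adjusted p = 0.0276). Both calls with shAD4-2 were lost when single libraries were left out, that of Gng7 without shControl replicate 2 or 3 or shAD4-2 replicate 1 or 3 (adjusted p up to 0.158) and that of Gng2 without shControl replicate 1 or shAD4-2 replicate 3 (adjusted p up to 0.148). That of Gng7 was also lost in DESeq2 (adjusted p = 0.0609) and with only the 2 groups compared (adjusted p = 0.0625). That of Gng2 was lost in each limma fit (adjusted p up to 0.202). Without shControl replicate 3 (adjusted p = 0.0432) or without a filter on low counts (adjusted p = 0.0394), Gng7 was called higher with shAD4-1. Gng4, with 21 to 43 reads per group, was not called, except lower with shAD4-1 without shControl replicate 2 (adjusted p = 0.0305). Summed over the class, Gγ transcripts stood at 322 ± 6.66 FPKM in shAD4-1, 286 ± 17.7 FPKM in shAD4-2 and 386 ± 8.31 FPKM in shControl libraries (SD, n = 3).

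**Figure D3:**
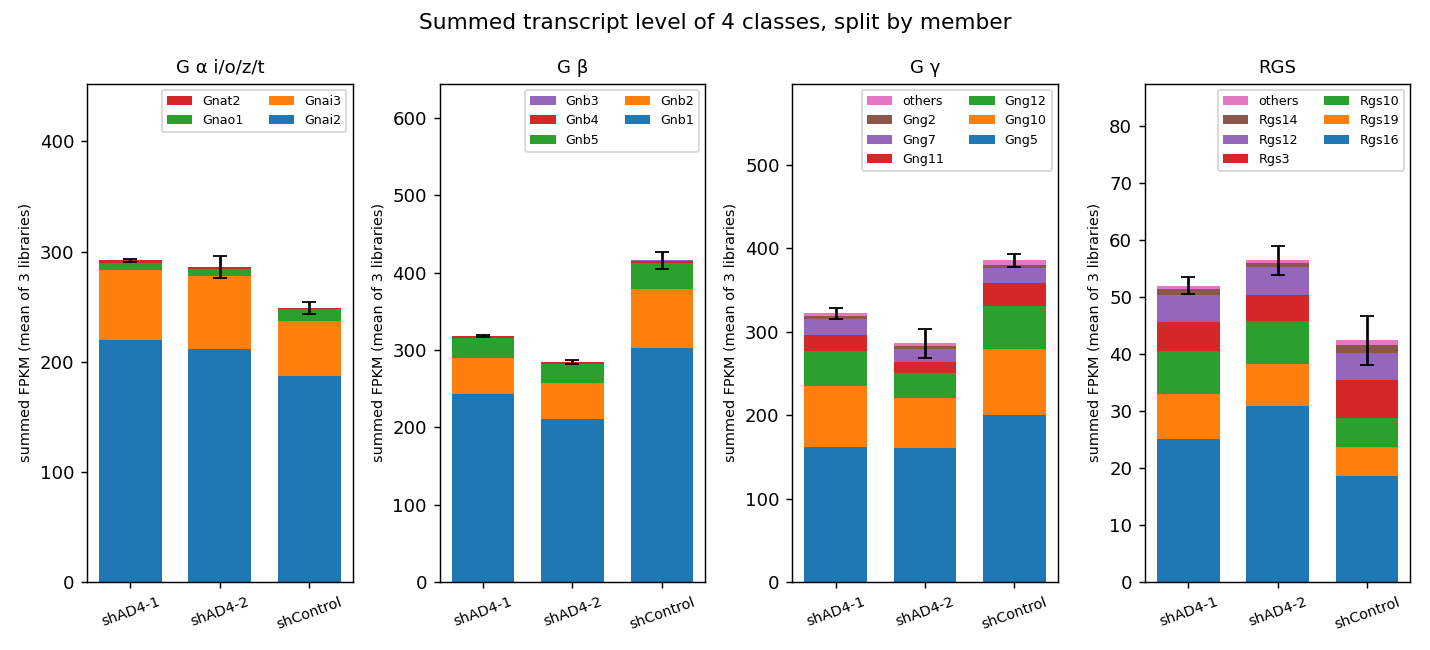
Summed FPKM of the Gαi/o/z/t class, Gβ, Gγ and RGS genes, as the mean of 3 libraries per group, with colours for the members and black bars for the SD of the sum. Sums of Gβ and Gγ are lowest in shAD4-2 and highest in shControl, and sums of the Gαi/o/z/t class and of RGS genes are lowest in shControl.

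RGS genes changed in both directions within each subfamily that had more than 1 called member. In the R4 subfamily, small proteins that act on Gαi and Gαq, Rgs2 and Rgs3 fell and Rgs16 rose with both hairpins. Rgs2, known for its action on Gαq and as a gene induced by cAMP, had 28, 32 and 36 reads in shAD4-1, 10, 13 and 7 reads in shAD4-2 and 53, 64 and 54 reads in shControl libraries. The 3 groups were apart, with log2 fold changes of -0.87 (SE 0.29, adjusted p = 0.0131) and -2.39 (SE 0.34, adjusted p = 4.88e-06). With shAD4-1 the call was lost without shControl replicate 2 (adjusted p = 0.0587) or shAD4-1 replicate 1 (adjusted p = 0.0556). At 0.556 FPKM or less per group on average, Rgs2 was among the least abundant RGS genes tested.

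Rgs16, which acts on Gαi and Gαq, was the most abundant RGS gene by FPKM in each group. It stood at 24.3, 25.3 and 25.8 FPKM in shAD4-1, 29.6, 32.4 and 30.7 FPKM in shAD4-2 and 14.6, 21.2 and 20.1 FPKM in shControl libraries. The groups did not overlap, and the log2 fold changes were 0.49 (SE 0.09, adjusted p = 0.000125) and 0.78 (SE 0.09, adjusted p = 4.04e-07). The low level in shControl replicate 1 adds to these fold changes. With single libraries left out they ran from 0.35 to 0.60 with shAD4-1 and from 0.65 to 0.90 with shAD4-2. The share of Rgs16 in the summed FPKM of RGS genes was 48.3% in shAD4-1, 54.8% in shAD4-2 and 43.6% in shControl libraries. Rgs3 averaged 5.12 ± 0.0859 FPKM in shAD4-1, 4.62 ± 0.191 FPKM in shAD4-2 and 6.69 ± 0.325 FPKM in shControl libraries, log2 fold changes of -0.33 and -0.48.

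Rgs19 of the RZ subfamily, also known as GAIP and a regulator of Gαi, stood at 8.07, 7.47 and 8.12 FPKM in shAD4-1, 7.67, 7.88 and 6.63 FPKM in shAD4-2 and 5.47, 4.89 and 5.14 FPKM in shControl libraries. It rose with both hairpins without overlap with shControl libraries, by log2 fold changes of 0.67 (SE 0.08, adjusted p = 8.12e-07) and 0.58 (SE 0.08, adjusted p = 5.22e-06). In the R12 subfamily Rgs10 rose, Rgs14 fell and Rgs12 was not called. Rgs10, a small protein that acts on Gαi, stood at 7.29, 6.88 and 8.17 FPKM in shAD4-1, 7.75, 8.24 and 6.44 FPKM in shAD4-2 and 4.12, 5.14 and 5.60 FPKM in shControl libraries. Its log2 fold change was 0.64 (SE 0.12, adjusted p = 0.000159) with shAD4-1 and 0.65 (SE 0.12, adjusted p = 0.000144) with shAD4-2.

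Rgs14, which carries a GoLoco motif beside its RGS domain, stood at 0.947, 0.834 and 1.12 FPKM in shAD4-1, 0.663, 0.784 and 0.821 FPKM in shAD4-2 and 1.14, 1.58 and 1.49 FPKM in shControl libraries. It fell by log2 fold changes of -0.48 (SE 0.20, adjusted p = 0.0402) and -0.84 (SE 0.20, adjusted p = 0.00129). The first call was lost without shControl replicate 2 or 3, without shAD4-1 replicate 1 or 2 (adjusted p up to 0.161) and in DESeq2 (adjusted p = 0.0577). Rgs12 averaged 4.85 ± 0.0382 FPKM in shAD4-1, 4.90 ± 0.220 FPKM in shAD4-2 and 4.82 ± 0.179 FPKM in shControl libraries. Of the R7 subfamily, which pairs with Gβ5, Rgs9 and Rgs11 had 22 to 102 reads per group and were not called, except Rgs11, higher with shAD4-1 without its replicate 2 (adjusted p = 0.0353). Rgs11 had 53, 22 and 27 reads in shAD4-1, 18, 20 and 22 in shAD4-2 and 18, 13 and 24 in shControl libraries, with overlap. Over all 12 RGS genes the summed level was 52.0 ± 1.54 FPKM in shAD4-1, 56.4 ± 2.49 FPKM in shAD4-2 and 42.4 ± 4.34 FPKM in shControl libraries (SD, n = 3). FPKM divides reads by gene length, so this sum gives long genes such as Rgs3 less weight than a sum of reads would. Summed as CPM, the RGS genes differed much less between the hairpin groups and shControl than in FPKM. In CPM, Rgs16 averaged 58.7 in shAD4-1, 72.2 in shAD4-2 and 43.5 in shControl libraries. Rgs3 averaged 60.5, 54.7 and 79.1 CPM in that order.

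Among proteins that switch off receptors, Grk5 and Arrb1 fell by more than 1.5-fold with both hairpins while Grk6 rose. Grk5, a membrane-bound receptor kinase, stood at 2.37, 2.41 and 2.65 FPKM in shAD4-1, 2.12, 2.604 and 2.14 FPKM in shAD4-2 and 4.85, 5.33 and 4.59 FPKM in shControl libraries. Hairpin libraries were all far below shControl libraries, with log2 fold changes of -0.93 (SE 0.08, adjusted p = 1.27e-08) and -1.05 (SE 0.08, adjusted p = 2.46e-09). Grk6, of the same subfamily, averaged 15.0 ± 0.367 FPKM in shAD4-1, 15.7 ± 0.158 FPKM in shAD4-2 and 12.4 ± 0.248 FPKM in shControl libraries, log2 fold changes of 0.34 and 0.40. Grk2, the most abundant GRK and one recruited by Gβγ, stood at 23.1, 24.4 and 23.5 FPKM in shAD4-1, 22.4, 23.1 and 21.4 FPKM in shAD4-2 and 23.8, 26.5 and 27.0 FPKM in shControl libraries. It was not called with shAD4-1 (log2 fold change -0.06, adjusted p = 0.282) and was called lower with shAD4-2 (log2 fold change -0.15, adjusted p = 0.0153). The call with shAD4-2 was lost without shControl replicate 2 or 3 or shAD4-2 replicate 3 (adjusted p up to 0.103), and without shControl replicate 1 the fall with shAD4-1 was called (adjusted p = 0.0234). Grk4 was not called and held 0.519% of the summed FPKM of GRK genes in shAD4-1, 0.552% in shAD4-2 and 0.622% in shControl libraries.

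Arrb1, β-arrestin 1, stood at 4.25, 4.07 and 4.02 FPKM in shAD4-1, 4.12, 3.98 and 3.71 FPKM in shAD4-2 and 6.66, 7.93 and 7.95 FPKM in shControl libraries. Its hairpin libraries did not overlap with its shControl libraries, and the log2 fold changes were -0.81 (SE 0.07, adjusted p = 7.09e-09) and -0.88 (SE 0.07, adjusted p = 2.3e-09). Arrb2, β-arrestin 2, stood at 21.8, 21.0 and 19.0 FPKM in shAD4-1, 17.3, 18.8 and 17.2 FPKM in shAD4-2 and 17.98, 19.0 and 18.4 FPKM in shControl libraries. It rose with shAD4-1 (log2 fold change 0.22, SE 0.06, adjusted p = 0.00463; lost in limma on log2(FPKM + 1), adjusted p = 0.0646, and on log2(FPKM + 0.1), adjusted p = 0.0571) and had a log2 fold change of 0.00 with shAD4-2 (SE 0.06, adjusted p = 0.993), and hairpin and shControl libraries overlapped. The share of Arrb1 in the summed FPKM of both arrestins was 16.7 ± 0.704% in shAD4-1, 18.1 ± 0.938% in shAD4-2 and 28.9 ± 1.67% in shControl libraries (SD, n = 3).

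Ric8a, a chaperone of Gαi, Gαq and Gα12/13 subunits, stood at 20.04, 19.5 and 18.6 FPKM in shAD4-1, 19.7, 19.5 and 17.6 FPKM in shAD4-2 and 16.8, 15.8 and 15.9 FPKM in shControl libraries. It rose with both hairpins without overlap with shControl libraries, by log2 fold changes of 0.32 (SE 0.05, adjusted p = 4.81e-05) and 0.29 (SE 0.06, adjusted p = 0.000155). Its gene overlaps Sirt3 in RefSeq, which rose too, with log2 fold changes of 0.58 and 0.72. Ric8b, a chaperone of Gαs and Gαolf, averaged 4.79 ± 0.296 FPKM in shAD4-1, 5.13 ± 0.163 FPKM in shAD4-2 and 4.30 ± 0.382 FPKM in shControl libraries. Its log2 fold changes were 0.22 (adjusted p = 0.0134) and 0.31 (adjusted p = 0.000829), and the first call was lost without shControl replicate 2 (adjusted p = 0.0704) or shAD4-1 replicate 3 (adjusted p = 0.0803). That call was also lost in each limma fit (adjusted p from 0.0834 to 0.154).

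Set against each other directly, the lines differed in 11 of the 40 tested members, 2 higher and 9 lower in shAD4-2 than in shAD4-1, which is 27.5% of them beside 27.4% of all tested genes (13.4% higher, 14% lower). At 1.5-fold or more 2 members differed, Rgs2 and Gnal, both lower in shAD4-2, beside 3.9% of all tested genes (0.963% higher, 2.93% lower). Rgs2 had 30 reads over the shAD4-2 and 96 over the shAD4-1 libraries (log2 fold change -1.53, SE 0.36, adjusted p = 0.00381). Gnal had 35 reads over the shAD4-2 and 89 over the shAD4-1 libraries (log2 fold change -1.19, SE 0.39, adjusted p = 0.0312), and its call was lost without any 1 of the shAD4-2 replicates or without shAD4-1 replicate 2 (adjusted p up to 0.167). The call of Gnal was also lost in limma on log2(FPKM + 1) (adjusted p = 0.286) and on log2(FPKM + 0.1) (adjusted p = 0.129).

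Of the 9 tested Gγ genes 4 were lower in shAD4-2 than in shAD4-1, beside 14% of all tested genes: Gng11 (log2 fold change -0.56, SE 0.10, adjusted p = 0.000377), Gng12 (-0.50, SE 0.05, adjusted p = 6.92e-07), Gng10 (-0.29, SE 0.05, adjusted p = 0.000201) and Gng7 (-0.26, SE 0.06, adjusted p = 0.00208). The median over the tested Gγ genes was -0.26, against -0.00 for all tested genes. Gnb1 was lower as well (-0.21, SE 0.03, adjusted p = 0.000154), while the other 3 tested Gβ genes were not called. The remaining differences were those of Gna13 (0.16), Rgs16 (0.30), Rgs3 (-0.15) and Arrb2 (-0.22) as log2 fold changes, with adjusted p = 0.00773, 0.0187, 0.0343 and 0.0138. Each of these 4 calls was lost without at least 1 hairpin library: that of Gna13 without shAD4-2 replicate 1 (adjusted p = 0.0518), that of Rgs16 without shAD4-2 replicate 2 or shAD4-1 replicate 1 or 2, that of Rgs3 without shAD4-2 replicate 1 or 3 or any shAD4-1 replicate, and that of Arrb2 without shAD4-2 replicate 1 or 3 or shAD4-1 replicate 1 or 2. The calls of Rgs16 and Rgs3 were also lost in each limma fit (adjusted p up to 0.18 and 0.12). That of Arrb2 was lost in limma on log2(FPKM + 1) without a minimum level (adjusted p = 0.0517). Gna11, not called between the hairpins (0.16, adjusted p = 0.0559), was called without shAD4-2 replicate 3 (adjusted p = 0.0166) or without shControl replicate 1 (adjusted p = 0.00267) or 3 (adjusted p = 0.0318), and Gna12 (-0.14, adjusted p = 0.113) without shControl replicate 1 (adjusted p = 0.0191). Gna11 was also called with RLE scaling (adjusted p = 0.0443), in DESeq2 (adjusted p = 0.0395) and without mitochondrial genes (adjusted p = 0.0424). Without a filter on low counts (adjusted p = 0.0116) or with only the 2 groups compared (adjusted p = 0.0049) it was called too. Gna12 was called with only the 2 groups compared (adjusted p = 0.0254). Without shAD4-2 replicate 1 or shAD4-1 replicate 2 the number of members called was 7.

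A list of 46 effectors and accessory proteins, of which 45 were in the table and 41 tested, moved in both directions. With shAD4-1 13 rose and 14 fell, and with shAD4-2 14 rose and 14 fell, with medians of 0.03 and -0.00 on the log2 scale. These counts lie near the background of 65% and 69% of all tested genes called, of which 32.7% rose and 32.3% fell with shAD4-1 and 34.2% rose and 34.8% fell with shAD4-2. By group, 6 and 7 of 10 genes that help Gβ to fold, mostly subunits of the CCT chaperonin, rose with shAD4-1 and shAD4-2 in that order, and 1 and 0 fell. Cct2 averaged 263 ± 5.59 FPKM in shAD4-1, 286 ± 4.01 FPKM in shAD4-2 and 165 ± 7.55 FPKM in shControl libraries, and Cct5 rose by 0.72 and 0.77 on the log2 scale. Of 4 RhoGEFs linked to Gα12/13, 3 fell with both hairpins, Arhgef1, Arhgef11 and Arhgef12, named here after their values were seen, with log2 fold changes between -0.47 and -0.11.

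Among genes of the list with at least 5 CPM, Rap1gap rose and Kctd12 fell the most. Rap1gap, a GTPase activator of Rap1 with a GoLoco motif in some isoforms, averaged 12.1 ± 0.820 FPKM in shAD4-1, 13.1 ± 0.786 FPKM in shAD4-2 and 4.60 ± 0.472 FPKM in shControl libraries (log2 fold changes 1.45 and 1.56). Kctd12, which binds Gβγ at GABA-B receptors, averaged 3.16 ± 0.132 FPKM in shAD4-1, 5.45 ± 0.329 FPKM in shAD4-2 and 13.4 ± 4.24 FPKM in shControl libraries (-2.02 and -1.24). Prex2, a Rac exchange factor activated by Gβγ, fell by 0.28 and 0.87 on the log2 scale. Kctd2 (-0.78 and -0.79) and the R7 anchor Gpr158 (-0.69 and -0.71) also fell.

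The 7 members that were not tested had almost no reads. Gnb3 had 26, 12 and 23 reads over the shAD4-1, shAD4-2 and shControl libraries, and Rgs8 had 19, 20 and 30. Gna14, Gng13, Grk1, Rgs5 and Rgs20 had between 0 and 6 reads in any group. Where a library had 0 reads, up to 3 are allowed at this depth, counting error only.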

How the data were processed

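RNA from B16 cells was measured in 9 libraries, made with the VAHTS Universal V6 kit per the labels' protocols. The submitters' processing notes name fastp, HISAT2, HTSeq and the build GRCm39, with no tool versions. Strand use in counting is not given in the sources used here. The authors deposited whole-number read counts per gene, and FPKM values that follow from those counts, one gene length per gene and the column totals. Columns were matched to samples by group name and replicate number, with the columns KD1 and KD2 read as shAD4-1 and shAD4-2 by their number, which no label states outright.

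The counts entered edgeR 4.0.16 (R 4.3.3) with filterByExpr (13807 genes, 99.968% of reads), TMM scaling, group as the only term over all libraries, glmQLFit and glmQLFTest, and Benjamini-Hochberg adjustment over all tested genes. SEs are the fold change over the square root of F. The fit was tested on simulated data.

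Members and lists were chosen with earlier results of these data known. Libraries' values were printed for members called at 1.5-fold or more in a comparison with at least 1 CPM in a group, and for the most abundant of each class; from the accessory list the 6 largest changes per comparison with shControl, at 5 CPM or more, were taken. Alternatives were RLE scaling, DESeq2 1.42.0, other filters, a replicate block, 2 groups only, each library left out, no mitochondrial genes, and limma 3.58.1 on log2(FPKM + 1) or log2(FPKM + 0.1). Some marker genes and the sums that hold them are not reported here.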

Additional observations from a re-analysis of the deposited data

Results flagged for a closer look

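For 2 members the effect of the hairpins differed by at least 1.5-fold in a direct test of shAD4-2 against shAD4-1 (edgeR's quasi-likelihood test, Benjamini-Hochberg adjustment over 13807 genes). Rgs2 was lower in shAD4-2 by a log2 fold change of -1.53 (adjusted p = 0.00381), with 10, 13 and 7 reads in shAD4-2 and 28, 32 and 36 reads in shAD4-1 libraries. Gnal was lower in shAD4-2 by a log2 fold change of -1.19 (adjusted p = 0.0312), with 9, 13 and 13 reads in shAD4-2 and 23, 41 and 25 reads in shAD4-1 libraries. Both rest on few reads.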

How the results depend on the processing

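Under 19 alternatives no called member changed direction. Of the members called in the comparison of shAD4-1 with shControl 25 of 29 were called under each alternative that tested them, of shAD4-2 with shControl 27 of 31, and of shAD4-2 with shAD4-1 6 of 11. The replicate block, whose numbers did not pair the libraries (correlations of same-numbered deviations from -0.124 to 0.002), gave 29, 31 and 11 calls and, at 1.5-fold or more, 11, 14 and 2. In limma on log2(FPKM + 1), which understates the change of low genes, 7, 9 and 0 members were called at 1.5-fold or more in the 3 comparisons, with or without a minimum of 1 FPKM. The 0 stood beside 0 at an unadjusted p under 0.05 and 2 in DESeq2. The same fits called 7 members between the hairpins in all, and log2(FPKM + 0.1) called 1 at 1.5-fold or more. Leaving out single libraries gave 27 to 30, 27 to 32 and 7 to 13 called members, and 11 to 12, 13 to 14 and 1 to 2 at 1.5-fold or more. Computed from CPM, without gene length, the share of Rgs16 among RGS genes was 28% in shAD4-1, 33.5% in shAD4-2 and 21.3% in shControl libraries. Rgs3 then held 28.8% in shAD4-1, 25.4% in shAD4-2 and 39.0% in shControl libraries. The share of Arrb1 among arrestins was 43.0% in shAD4-1, 45.6% in shAD4-2 and 60.5% in shControl libraries, and that of Grk4 among GRKs 0.980% in shAD4-1, 1.04% in shAD4-2 and 1.11% in shControl libraries. Depth limits the calls of Gnal, Rgs2 and Gngt2, which rest on the fewest reads among called members.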

Other observations

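All 6 reads of Gna14, a Gq-class subunit, came from shAD4-2 replicate 3. The members together held 0.323 ± 0.0006% of reads in shAD4-1, 0.304 ± 0.00357% in shAD4-2 and 0.370 ± 0.0112% in shControl libraries (SD, n = 3). Of the other members that overlap a protein-coding gene in RefSeq, Gnb4 fell where Mfn1 rose with both hairpins (log2 fold changes of Mfn1 0.25 and 0.15), and Grk5 fell where Zfp950 rose (0.65 and 0.64). Gnb5, which fell with both hairpins, overlaps Myo5c, for which no values are given here. Gng13, which was not tested, overlaps Chtf18, which was not called with shAD4-1 (0.23) and rose with shAD4-2 (0.78).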
